A study of Mus musculus with 22 samples.

Results

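In earlier results of these data, a set of 5 genes told mouse splenic immature B cells of the Tcrd-H2BeGFP strain from those of the Tcrd-GDL strain: Gm15446, Gm6768, Pkd1l1, Gm1966 and C920009B18Rik. They were chosen by symbol for large differences between toxin-treated Tcrd-H2BeGFP and untreated Tcrd-GDL libraries of experiment 2, so that difference is given as a description with no test. The members are 5 of the 26097 genes of that table, and all 5 are listed in experiment 1 and in culture as well. The working name for the set, genes that are on in 1 strain and off in the other, did not hold for Gm1966 and C920009B18Rik, whose reads were plentiful in both strains. Gm15446, Gm6768 and Pkd1l1 came near it in experiment 2, with 0 to 12.1 normalized reads per library in the strain where they were low, but none of the 5 met the strict definition given further on, and Gm15446 was counted in some Tcrd-GDL libraries of experiment 1. Gm1966 also lies on chromosome 7, the chromosome of the named locus that the set was meant to leave out (Tnfrsf26, from 143607659), though it is in another region of it, at 106596743 to 106604035.

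The 22 libraries hold total RNA of B cells sorted from spleen as B220+CD93+. Tcrd-GDL mice were untreated (3 libraries in experiment 1, 5 in experiment 2) or had received diphtheria toxin (3 and 2 libraries), injected 2 times with 48 h between the injections at a dose of 15 ng for each g of body weight, with analysis on day 8 after the first. Tcrd-H2BeGFP mice of experiment 2 received the same toxin course (3 libraries), and the culture libraries come from Tcrd-H2BeGFP mice that were not treated, with immature B cells grown by themselves (3 libraries) or together with γδ T cells (3 libraries). The design names the toxin-treated Tcrd-GDL mice as depleted of γδ T cells. Both strain names refer to a construct at Tcrd, the gene of the T cell receptor delta chain. As known of these strains, that of Tcrd-GDL carries a receptor for diphtheria toxin, and that of Tcrd-H2BeGFP a fluorescent histone. The labels give neither the inbred background of a strain nor the age of the mice. All Tcrd-H2BeGFP libraries of spleen were toxin-treated, so in experiment 2 only the comparison with toxin-treated Tcrd-GDL matches the treatment.

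The 5 genes have little in common by function. Gm15446 is annotated as protein coding by GENCODE and as a long non-coding RNA by RefSeq, and much of its transcript resembles Zfp932, which encodes a zinc-finger protein. Gm6768, named Ncoa4-ps by RefSeq, is a processed pseudogene, a copy of a spliced messenger RNA put back into the genome. Its source Ncoa4 encodes the receptor that delivers ferritin to autophagy. Pkd1l1 encodes a polycystin-family membrane protein of cilia, known for its part in setting left and right in the embryo. Gm1966 belongs to a cluster of very large inducible GTPase genes, which respond to interferon. It is an unprocessed pseudogene in GENCODE and protein coding in RefSeq. C920009B18Rik is an unprocessed pseudogene in GENCODE and a long non-coding RNA in RefSeq. By GENCODE type, 3 of the 5 members were pseudogenes (60%), as were 588 of the 13364 genes tested in experiment 2 (4.40%). Of these 3 members, RefSeq types only Gm6768 as a pseudogene.

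The members were first placed in the genome (GRCm38, the build named mm10 in the processing notes). Gm15446 (ENSMUSG00000090015) is at chr5:109923400-109943936 on the plus strand and overlaps the lincRNA Gm26808 on the minus strand. Gm6768 (ENSMUSG00000021908) is at chr12:119260978-119262855 on the plus strand. Pkd1l1 (ENSMUSG00000046634) is at chr11:8826708-8973266 on the minus strand, with the processed pseudogene Gm11991 inside its span on the same strand. Gm1966 (ENSMUSG00000073902) is at chr7:106596743-106604035 on the minus strand. C920009B18Rik (ENSMUSG00000097352) is at chr10:22306702-22321765 on the plus strand and overlaps Raet1e, which encodes a ligand of the NKG2D receptor, on the same strand. Of the overlapping genes, Raet1e did not exceed 3.07 normalized reads in any library and Gm11991 did not exceed 1.70 in the 2 spleen experiments, while Gm26808 did not exceed 12.5.

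Gm6768 can be told from Ncoa4 (chr14:32159865-32179855, plus strand) at only 2 of the 1878 bases of the Ncoa4 coding sequence, an identity of 99.9%. These sites are shown because a read that fits Gm6768 and not Ncoa4 must cross a site where the sequences differ, or run past an end of the copied stretch. The substitutions are A1312G and G1533A, with the Ncoa4 base first, the position counted from 1 at the start of its coding sequence, and the Gm6768 base last. Each line gives 61 bases of the GENCODE M21 transcript with the differing base in capitals. In Gm6768 these stretches are chr12:119262259-119262319 and chr12:119262480-119262540, plus strand.
Gm6768, A1312G: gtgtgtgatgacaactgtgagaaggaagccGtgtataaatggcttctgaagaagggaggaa
Ncoa4, A1312G: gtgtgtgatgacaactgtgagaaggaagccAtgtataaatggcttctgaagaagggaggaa
Gm6768, G1533A: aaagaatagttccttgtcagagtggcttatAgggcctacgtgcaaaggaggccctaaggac
Ncoa4, G1533A: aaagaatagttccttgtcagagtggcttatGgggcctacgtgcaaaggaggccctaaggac

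Of all windows of 100 bases in Gm6768, 11.2% occurred in no other annotated transcript. This share was 77.9% for Gm15446, 98.9% for Gm1966 and 100% for Pkd1l1 and for C920009B18Rik. In windows of 50 bases it was 5.47% for Gm6768, 51.2% for Gm15446 and 82.5% for Gm1966. Gm15446 matched Zfp932 at 97.4% over 1765 of its 2417 transcript bases. Gm1966 matched Gm8979 at 93.3%, Gm8989 at 93.2% and Gvin1 at 92.9% over nearly its whole transcript of 7293 bases. How the authors' counting treated reads that fit more than 1 gene is not given in the sources used here, so counts of Gm6768, and to a smaller degree of Gm15446 and Gm1966, are uncertain.

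The promoters of Gm15446 and Pkd1l1 are shown because these genes differed most between the strains in opposite directions among the 4 members that have an entry in the RefSeq promoter table (GRCm38.p6). They run from 250 bases before to 50 after the annotated start, at chr5:109933313-109933612 on the plus strand, which is inside the longer GENCODE span of Gm15446, and at chr11:8974660-8974959 on the minus strand. Capitals mark each CpG dinucleotide.
Gm15446: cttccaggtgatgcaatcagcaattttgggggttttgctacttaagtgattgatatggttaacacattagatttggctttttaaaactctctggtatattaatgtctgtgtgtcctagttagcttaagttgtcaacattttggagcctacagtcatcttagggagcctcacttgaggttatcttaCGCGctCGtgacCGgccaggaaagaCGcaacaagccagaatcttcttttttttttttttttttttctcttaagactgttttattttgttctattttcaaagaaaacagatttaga
Pkd1l1: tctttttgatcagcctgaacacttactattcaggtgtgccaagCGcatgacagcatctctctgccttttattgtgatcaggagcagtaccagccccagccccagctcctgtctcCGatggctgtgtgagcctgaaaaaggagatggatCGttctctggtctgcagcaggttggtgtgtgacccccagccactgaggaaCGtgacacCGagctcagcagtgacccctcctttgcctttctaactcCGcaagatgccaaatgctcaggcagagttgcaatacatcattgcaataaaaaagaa
The Gm15446 promoter held 5 CpG at 36.3% GC and that of Pkd1l1 held 6 at 51.0% GC, against a median of 7 CpG and 52.7% GC over 32851 promoters. Gm1966 held 1 CpG and C920009B18Rik held 3. On either strand, the letters TATAAA stood in 13.6% of all promoters and in that of C920009B18Rik among the 4 members. Neither CCAAT (37.4% of all promoters) nor GGGCGG (35.7%) stood in any of the 4.

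Depth ran from 9794413 to 20343954 reads per library in experiment 1, from 22022330 to 36840455 in experiment 2 and from 17505909 to 28729574 in culture. All 9 markers of B cells were present in every group. In experiment 2, the summed level of 10 T cell markers was 622 to 1789 in untreated Tcrd-GDL, 736 to 945 in toxin-treated Tcrd-GDL and 1401 to 2181 in Tcrd-H2BeGFP libraries, and that of the 5 listed myeloid markers was 425 to 1217, 355 to 549 and 881 to 1319. In the same order of groups, dendritic cell markers summed to 63.6 to 273, 226 to 419 and 129 to 162. Markers of γδ T cells summed to 1.66 to 14.6, 11.7 to 64.7 and 2.05 to 12.8. B cell markers summed to 192418 to 256816 over the same libraries. The part of such cells in the strain differences was not tested, and in sorted bulk RNA fewer cells of a type and less RNA per cell cannot be told apart. Replicate 1 of toxin-treated Tcrd-GDL in experiment 1 stood apart, with 28.7% of its reads in the small RNA gene Gm23935 against 16.1% to 20.4% in the others. It also had 372 reads of the Y-linked gene Ddx3y, against 38 and 2 in toxin-treated replicates 2 and 3 and 0 in the untreated libraries, and 2 reads of Xist, the RNA of the inactive X chromosome, against 7965 to 17840 in the other libraries.

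Gm15446 was near the detection limit in Tcrd-GDL and readily counted in Tcrd-H2BeGFP spleen. Its normalized read counts in experiment 2 were 4.98, 2.08, 2.49, 10.7 and 1.72 in the untreated Tcrd-GDL libraries. They were 6.58 and 2.33 in the toxin-treated Tcrd-GDL libraries and 282, 253 and 226 in the Tcrd-H2BeGFP libraries. No Tcrd-GDL library came near any Tcrd-H2BeGFP library, whatever its treatment. The means were 4.39 ± 3.74 (SD, n = 5), 4.46 ± 3.00 (SD, n = 2) and 254 ± 27.9 (SD, n = 3), a 57.8-fold ratio of Tcrd-H2BeGFP to untreated Tcrd-GDL and a difference of 5.79 in log2(value + 1). Among 13364 genes this difference ranked second by size, and the median size over all of them was 0.23.

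Gm6768, the Ncoa4 pseudogene, had the same order of strains. Untreated Tcrd-GDL libraries had 3.32, 2.08, 7.48, 5.34 and 12.1 normalized reads, and toxin-treated ones had 2.19 and 5.83. Tcrd-H2BeGFP libraries had 103, 120 and 192. The lowest Tcrd-H2BeGFP library lay above the highest Tcrd-GDL library, and replicate 3 of Tcrd-H2BeGFP was the highest of all. The means were 6.06 ± 3.93 (SD, n = 5), 4.01 ± 2.57 (SD, n = 2) and 138 ± 47.7 (SD, n = 3), which is a ratio of 22.8 and a log2 difference of 4.43, ranked 3 of 13364.

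Pkd1l1, the polycystin gene, went the other way and was lowly expressed even where present. Untreated Tcrd-GDL libraries had 17.4, 23.9, 22.5, 25.4 and 43.0 normalized reads and toxin-treated ones 14.3 and 23.3. The Tcrd-H2BeGFP libraries had 0, 1.02 and 0.705, so that the strains did not overlap. These values rest on 131 reads in the untreated Tcrd-GDL libraries, 33 in the toxin-treated ones and 2 in the Tcrd-H2BeGFP libraries. The log2 difference was -4.12, ranked 4 of 13364, and depended on the pseudocount at these low counts (-2.45 with a pseudocount of 5).

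Gm1966, of the inducible GTPase cluster, was abundant in both strains. It had 2724, 2636, 2176, 2527 and 2944 normalized reads in untreated Tcrd-GDL, 2458 and 3279 in toxin-treated Tcrd-GDL, and 4045, 6090 and 5628 in Tcrd-H2BeGFP libraries. The strains did not overlap, but the closest libraries of the 2 toxin-treated groups were 3279 and 4045. The means of 2601 ± 283 (SD, n = 5) and 5254 ± 1072 (SD, n = 3) give a ratio of 2.02 and a log2 difference of 1.00, which ranked 446 of 13364.

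C920009B18Rik was lower in Tcrd-H2BeGFP and again plentiful in both strains. The untreated Tcrd-GDL libraries had 852, 1080, 930, 1063 and 1105 normalized reads, the toxin-treated ones 1002 and 921, and the Tcrd-H2BeGFP libraries 546, 609 and 586. All 3 Tcrd-H2BeGFP libraries lay below all 7 Tcrd-GDL libraries. The means were 1006 ± 110 (SD, n = 5), 962 ± 57.1 (SD, n = 2) and 580 ± 32.3 (SD, n = 3), a log2 difference of -0.79 ranked 816 of 13364. The 5 members thus lie in very different parts of the ranking. Only 34 genes reached a size of 2 and only 4 genes a size of 4 on this scale, and Gm15446, Gm6768 and Pkd1l1 are among those 4.

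**Figure D1:**
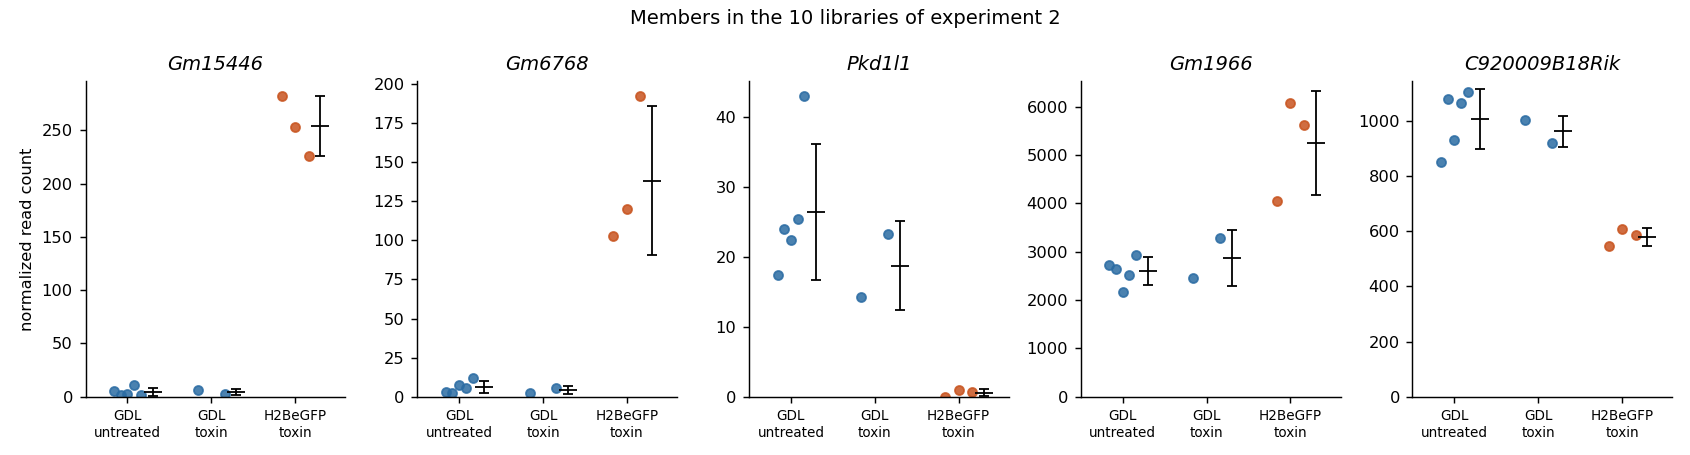
Normalized read count (linear vertical axes from 0) of each member in the 10 libraries of experiment 2, by group. Points are libraries, bars are mean ± SD; Gm15446 and Gm6768 are near 0 in all 7 Tcrd-GDL libraries, Pkd1l1 is near 0 in the 3 Tcrd-H2BeGFP libraries, and Gm1966 and C920009B18Rik are well above 0 in every library.

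Strains did not overlap in experiment 2 for any of the 5 members, a property close to the one they were chosen for and shared by 16.8% of all tested genes. Under a strict definition (at most 10 normalized reads in every library of 1 strain and at least 50 in every library of the other), 1 gene of 26097 was on in 1 strain and off in the other. This gene was Tnfrsf26, a gene of the tumour necrosis factor receptor family, with 174 to 298 normalized reads in Tcrd-GDL and 0 in Tcrd-H2BeGFP libraries. Gm15446 and Gm6768 missed the definition by 1 library each, as their highest Tcrd-GDL values were 10.7 and 12.1, and Pkd1l1 missed it because its Tcrd-GDL values stayed at 43.0 or below. With limits of 20 and 40, the genes were Gm15446, Gm6768, Shank2, Gpr55 and Tnfrsf26, of which the first 4 were on in Tcrd-H2BeGFP. By the strict definition no gene separated the 2 groups of experiment 1 or the 2 groups of culture, and with limits of 20 and 40 there were 2 genes in each.

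Experiment 1 and culture were not used in choosing the members, and each holds 1 strain only. The tables were normalized separately, so presence was read from the reads themselves, as counts per library total (CPM, recovered reads scaled to the total of the library), and not tested between tables. Strain and experiment cannot be told apart in this comparison.

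Gm6768 kept the strain order in all 22 libraries. In experiment 1 the untreated Tcrd-GDL libraries had 4.17, 0 and 5.09 normalized reads and the toxin-treated ones 3.06, 3.16 and 3.37. In culture, Tcrd-H2BeGFP cells alone had 55.2, 59.4 and 72.2, and those with γδ T cells had 60.3, 39.2 and 59.7. As CPM, the 13 Tcrd-GDL libraries ranged from 0 to 0.440 and the 9 Tcrd-H2BeGFP libraries from 1.84 to 7.80.

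A ratio within each library needs no scaling between tables, and Ncoa4 offers one. It still depends on read length and on the counting of shared reads, which were not compared between the tables. Ncoa4 itself was present throughout, at 664 to 742 normalized reads in untreated Tcrd-GDL, 675 and 1029 in toxin-treated Tcrd-GDL and 810, 724 and 585 in Tcrd-H2BeGFP libraries of experiment 2. Of the reads assigned to Gm6768 or Ncoa4, those of Gm6768 made up 0% to 1.63% in the 13 Tcrd-GDL libraries (median 0.974%) and 11.2% to 24.8% in the 9 Tcrd-H2BeGFP libraries (median 14.0%). No library of one strain reached the range of the other. In experiment 1, which played no part in the choice, the highest share was 6 of 419 reads in untreated replicate 3, or 1.43% with an exact Clopper-Pearson 95% interval of 0.527% to 3.09%, and untreated replicate 2 had 0 of 276 reads, which allows a share of up to 1.09% by a floor of 3 reads and 1.33% by the exact interval. In culture the lowest share was 53 of 468 reads in co-culture replicate 2, or 11.3% with an interval of 8.60% to 14.6%. The share did not separate B cells alone (14.2% ± 3.95, SD, n = 3) from B cells with γδ T cells (14.5% ± 3.38, SD, n = 3).

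**Figure D2:**
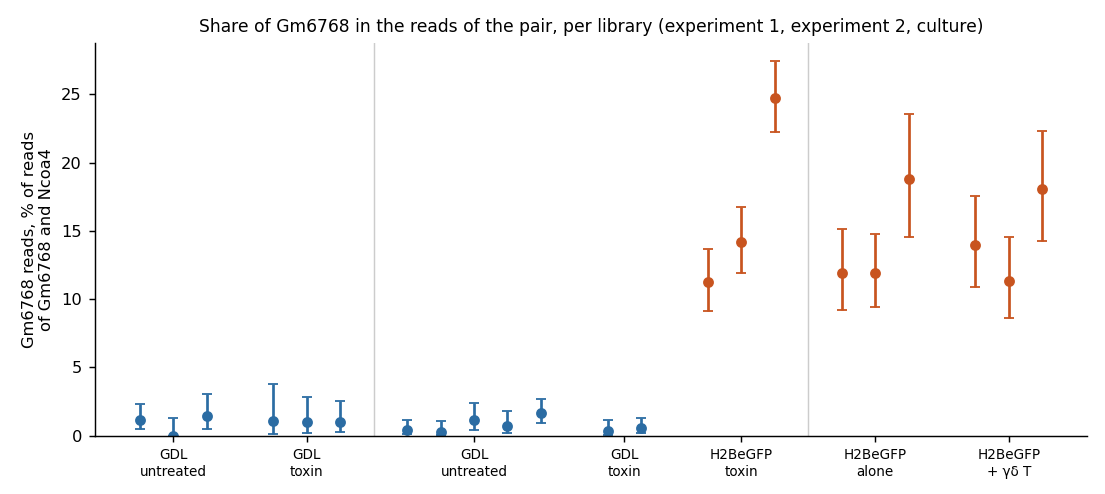
Reads of Gm6768 as a percentage of the reads of Gm6768 and Ncoa4 (vertical axis from 0) in each of the 22 libraries, in the order experiment 1, experiment 2 and culture; bars are exact 95% binomial intervals, which cover counting error only. All 13 Tcrd-GDL libraries (blue) are at or below 1.63% and all 9 Tcrd-H2BeGFP libraries (orange) at or above 11.2%.

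Pkd1l1 was nearly absent from all Tcrd-H2BeGFP libraries. In culture it had 0 reads in the 3 libraries of B cells alone, out of 62377578 reads in total, which allows up to 0.0481 CPM. With γδ T cells it had 0, 0 and 1.75 normalized reads, the last from 2 reads. Over the 9 Tcrd-H2BeGFP libraries there were 4 reads in total and 6 libraries with none. In experiment 1, Tcrd-GDL libraries had 6.56, 0 and 5.93 normalized reads untreated and 1.53, 6.32 and 9.27 after toxin. Thus 1 of 13 Tcrd-GDL libraries had no read, and this was untreated replicate 2 of experiment 1, a library of 9966821 reads. The 13 Tcrd-GDL libraries ranged from 0 to 1.57 CPM and the Tcrd-H2BeGFP libraries from 0 to 0.0977, so the ranges overlapped. The Tcrd-GDL library at 0 lay below the Tcrd-H2BeGFP libraries that had a read.

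Gm15446 was counted in every Tcrd-H2BeGFP library of culture, but experiment 1 was uneven. B cells cultured alone had 73.8, 74.5 and 98.4 normalized reads, and those with γδ T cells had 55.4, 71.0 and 69.3. In experiment 1, untreated Tcrd-GDL libraries had 43.5, 3.63 and 0.848 and toxin-treated ones 29.1, 10.5 and 2.53. The high libraries were replicate 1 of each group, with 73 and 19 reads. As CPM, untreated replicate 1 reached 3.59, inside the range of the 6 culture libraries (2.80 to 4.51) and below that of the Tcrd-H2BeGFP spleen libraries (9.17 to 10.99), while the 7 Tcrd-GDL libraries of experiment 2 had 0.0629 to 0.326. Across all 22 libraries the strains therefore overlapped for Gm15446. Of its neighbours, Gm26779 and Zfp932 did not share the unevenness, as Gm26779 ranged from 16.8 to 30.3 and Zfp932 from 59.3 to 108 normalized reads over the 6 libraries of experiment 1.

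**Figure D3:**
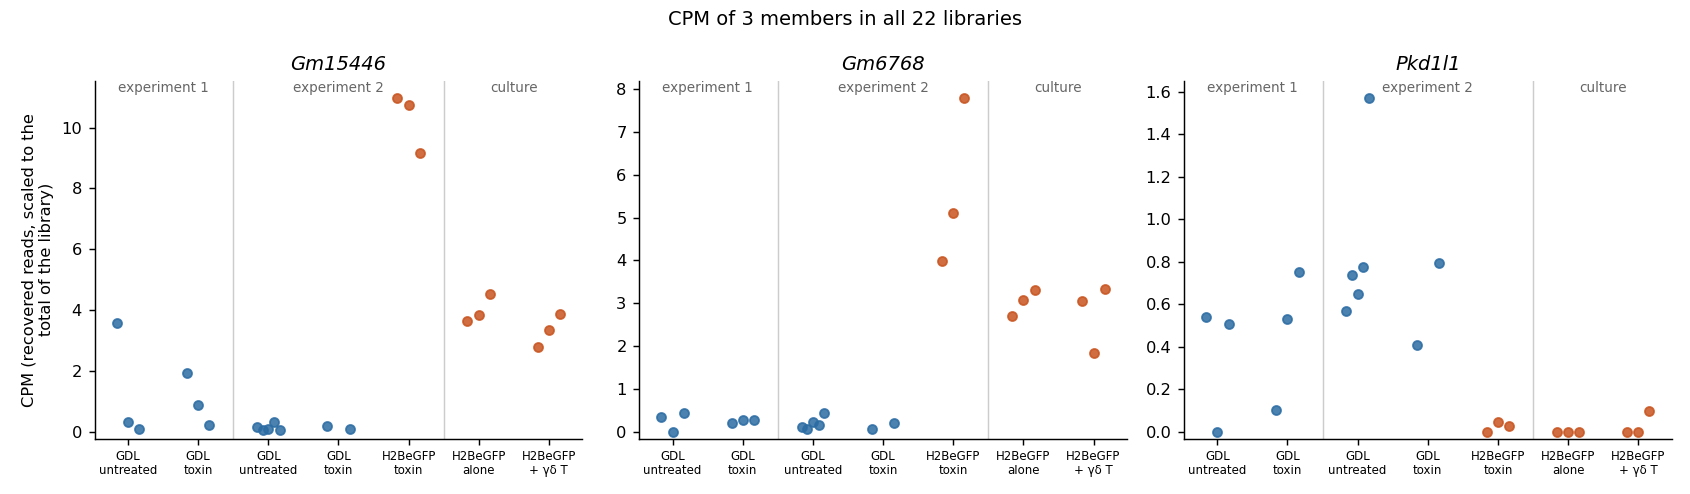
CPM, recovered reads scaled to the total of the library (linear vertical axes) of Gm15446, Gm6768 and Pkd1l1 in all 22 libraries; each point is a library, blue for Tcrd-GDL and orange for Tcrd-H2BeGFP, and grey lines divide experiment 1, experiment 2 and culture. Gm6768 stays at or below 0.440 in Tcrd-GDL and at or above 1.84 in Tcrd-H2BeGFP, whereas untreated Tcrd-GDL replicate 1 of experiment 1 reaches 3.59 for Gm15446.

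The other members did not order the 22 libraries by strain. Gm1966 had 62.7 to 202 CPM in Tcrd-GDL libraries and 22.2 to 259 in Tcrd-H2BeGFP libraries. The highest Tcrd-H2BeGFP values were in spleen (158 to 259) and the lowest in culture (22.2 to 95.0). Normalized reads of Gm1966 in experiment 1 were 2384, 1898 and 2376 untreated and 1718, 2311 and 2248 after toxin. C920009B18Rik had 13.2 to 40.4 CPM in Tcrd-GDL and 16.2 to 34.4 in Tcrd-H2BeGFP libraries, with 191, 225 and 205 normalized reads untreated and 197, 207 and 200 after toxin in experiment 1.

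Depletion of γδ T cells within the Tcrd-GDL strain was tested with limma on log2(value + 1) in each experiment, with a Benjamini-Hochberg adjusted p under 0.05 over all tested genes. None of the members tested passed in either experiment. In experiment 1, where 0% of the 11701 tested genes passed and 1033 had an unadjusted p under 0.05, 3 members were tested. The log2 differences, toxin minus untreated, were 0.56 ± 1.13 (SE) for Gm15446, -0.09 ± 0.14 for Gm1966 and -0.04 ± 0.12 for C920009B18Rik, with adjusted p from limma of 0.905, 0.866 and 0.946. Gm15446 passed the filter on low values there only with untreated replicate 1 (43.5 normalized reads), so its test rests on that library. DESeq2 on the recovered reads called 31 genes of experiment 1 and edgeR called 0. Gm6768 and Pkd1l1 had a mean under 10 in experiment 1 and were not tested there.

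In experiment 2, 0.299% of tested genes passed and the untreated libraries are ones that the choice of members had used. Gm15446 and Gm6768 are given no test here, because their means in both Tcrd-GDL groups were under 10 and they passed the filter on low values only through the Tcrd-H2BeGFP libraries. For the others, the log2 differences were -0.45 ± 0.57 (SE) for Pkd1l1, 0.13 ± 0.15 for Gm1966 and -0.06 ± 0.12 for C920009B18Rik. Their adjusted p from limma were 0.870, 0.844 and 0.925. The groups overlapped for each of the 5 members (12.3% of all tested genes had groups that did not), and with 2 toxin-treated libraries a 2-fold change in Pkd1l1 was not detectable.

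Co-culture with γδ T cells was compared with culture alone within the Tcrd-H2BeGFP strain, where 2.16% of 12386 tested genes passed. None of the 4 members tested passed. For 3 of them the groups did not overlap, as for 18.4% of all tested genes, with Gm1966 and C920009B18Rik higher (7.94% of tested genes) and Gm15446 lower (10.4%). Gm1966 had 476, 572 and 485 normalized reads alone and 736, 584 and 1706 with γδ T cells. Every co-culture library was above every library of B cells alone, replicate 3 by far the most. The log2 difference was 0.82 ± 0.29 (SE) with an adjusted p of 0.217 by limma, and 0.36 without co-culture replicate 3. C920009B18Rik had 423, 404 and 354 normalized reads alone and 487, 488 and 618 with γδ T cells, a log2 difference of 0.43 ± 0.14 (SE) with an adjusted p of 0.163 by limma. Gm15446 was lower with γδ T cells, by -0.33 ± 0.20 (SE) with an adjusted p of 0.573, and Gm6768 differed by -0.24 ± 0.23 (SE) with an adjusted p of 0.751, both by limma.

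The neighbourhood of each member was examined next, over tested genes with a body within 500 kb. In the comparison of Tcrd-H2BeGFP with untreated Tcrd-GDL, 15.7% of all tested genes passed, 7.32% as higher and 8.34% as lower. These calls are sensitive to single libraries, as 196 genes passed in place of 2093 without Tcrd-H2BeGFP replicate 2 and 812 without replicate 3. Strain and toxin treatment cannot be told apart in it.

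Around Gm15446, 1 of 18 neighbours passed, Ankle2, which encodes a nuclear envelope protein, with 2067 ± 146 (SD, n = 5) normalized reads in untreated Tcrd-GDL and 2607 ± 248 (SD, n = 3) in Tcrd-H2BeGFP and a log2 difference of 0.33 ± 0.09 (SE; limma adjusted p = 0.0262, lost without Tcrd-H2BeGFP replicate 2 or 3, or untreated replicate 5 or 6). Toxin-treated Tcrd-GDL libraries averaged 2176 ± 294 (SD, n = 2) for Ankle2. The nearest neighbour, Gm26779 at 32.3 kb, differed by 0.56 ± 0.25 (SE, limma adjusted p = 0.136). Zfp932, the gene most like Gm15446 in sequence, lies 52.6 kb away and had 219 ± 15.9 (SD, n = 5) normalized reads in untreated Tcrd-GDL and 226 ± 42.0 (SD, n = 3) in Tcrd-H2BeGFP, a log2 difference of 0.03 ± 0.16 (SE; limma adjusted p = 0.910). Golga3 and Zfp605 did not pass either, at 0.25 and 0.44 with limma adjusted p of 0.0678 and 0.0572.

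Pkd1l1 had 2 tested neighbours and neither passed. They were Tns3, an adhesion protein gene, at a log2 difference of 0.37 (limma adjusted p = 0.0872) and Hus1, a DNA damage checkpoint gene, at -0.28 (limma adjusted p = 0.141). Gm6768 had no tested gene within 500 kb. For Gm15446 and Pkd1l1, whose strain differences were among the 4 largest of all tested genes, no tested neighbour came close to the member.

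Gm1966 and its 4 tested neighbours differed in the same direction. Of these neighbours, 3 were higher in Tcrd-H2BeGFP by limma. The other, Gm18853, lies within Gvin1 on the same strand. It did not pass, at 1.20 ± 0.51 (SE, limma adjusted p = 0.115), and its groups overlapped. Gvin1, a very large inducible GTPase, had 98.2 ± 11.4 (SD, n = 5) normalized reads in untreated Tcrd-GDL and 194 ± 22.5 (SD, n = 3) in Tcrd-H2BeGFP, a log2 difference of 0.98 ± 0.17 (SE; limma adjusted p = 0.00461). Gm8995 went from 1834 ± 204 to 2743 ± 342, by 0.58 ± 0.10 (limma adjusted p = 0.00462). Both calls held in all 14 alternative fits. Gm4759 went from 873 ± 143 to 1188 ± 106, by 0.45 ± 0.13 (limma adjusted p = 0.0250), a call lost in 6 of 14 alternatives, each of which leaves out 1 library (untreated replicate 4, 5, 6 or 7, or Tcrd-H2BeGFP replicate 2 or 3). Its groups overlapped, as untreated replicate 8 had 1114 and Tcrd-H2BeGFP replicate 1 had 1093. The toxin-treated Tcrd-GDL libraries had 1127 and 854 normalized reads of Gm4759. They averaged 99.2 ± 14.7 (SD, n = 2) for Gvin1 and 1930 ± 202 for Gm8995. Gvin1 resembles Gm1966 in sequence, while the likeness of Gm8995 and Gm4759 to it is not given here. How the counting divided shared reads is not given either, so the values of these genes may not be independent of Gm1966.

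The wider family lists gave the following counts. Of the very large inducible GTPases other than Gm1966, 3 were tested and all 3 were higher in Tcrd-H2BeGFP, with a median log2 difference of 0.98 against 0.00 over all genes. Of all tested genes, 7.32% were higher. Gvin1 and Gm8995 were already counted above as neighbours of Gm1966. The remaining GTPase, Gm4070, went from 42.7 ± 11.2 (SD, n = 5) to 106 ± 28.1 (SD, n = 3) normalized reads, by 1.30 ± 0.29 (SE, limma adjusted p = 0.00981, lost without Tcrd-H2BeGFP replicate 2 or 3). Toxin-treated Tcrd-GDL libraries averaged 28.5 ± 9.23 (SD, n = 2) for Gm4070. Of 15 interferon-inducible GTPases of the guanylate-binding and immunity-related families, 5 were higher (Gbp5, Gbp6, Gbp7, Gbp9 and Irgm2), none was lower and 14 had a positive difference, with a median of 0.44. Gbp6 went from 157 ± 19.6 (SD, n = 5) to 298 ± 96.7 (SD, n = 3), by 0.89 ± 0.23 (SE; limma adjusted p = 0.0178). Each of these 5 calls was lost in at least 1 fit that leaves out a library, for Gbp6 only without Tcrd-H2BeGFP replicate 3. Toxin-treated Tcrd-GDL libraries averaged 570 ± 64.8 (SD, n = 2) for Gbp5, 121 ± 58.0 for Gbp6, 178 ± 14.6 for Gbp7, 1694 ± 307 for Gbp9 and 492 ± 175 for Irgm2. In the same order, Tcrd-H2BeGFP libraries averaged 717, 298, 256, 2069 and 731. Of the other polycystins, 2 were tested in experiment 1 and 3 in experiment 2 and in culture, and none passed, Pkd1 having a log2 difference of -0.08 ± 0.13 (SE; limma adjusted p = 0.704) between the strains.

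Around C920009B18Rik, 2 of 9 neighbours passed, both lower in Tcrd-H2BeGFP as C920009B18Rik was. Gm26740, 3.87 kb away and on the other strand, had 1255 ± 145 (SD, n = 5) normalized reads in untreated Tcrd-GDL and 737 ± 97.3 (SD, n = 3) in Tcrd-H2BeGFP. Its log2 difference of -0.77 ± 0.11 (SE; limma adjusted p = 0.00202) held in all 14 alternative fits. Its toxin-treated Tcrd-GDL libraries had 1584 and 1320, above all 3 Tcrd-H2BeGFP libraries (695, 848 and 667). Hmgb1-ps8, a pseudogene of a chromatin protein gene, went from 1036 ± 211 to 660 ± 102, by -0.64 ± 0.16 (limma adjusted p = 0.0173, lost without Tcrd-H2BeGFP replicate 2 or 3). Toxin-treated Tcrd-GDL libraries averaged 1087 ± 283 (SD, n = 2) for Hmgb1-ps8. This pseudogene lies within the span of Gm26740 on the same strand, so the 2 calls may count some of the same reads. Gm26528, another pseudogene in that span and on that strand, did not pass, at 0.08 ± 0.23 (SE, limma adjusted p = 0.839). H60b, which like Raet1e encodes an NKG2D ligand, was among the 7 that did not pass.

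**Figure D4:**
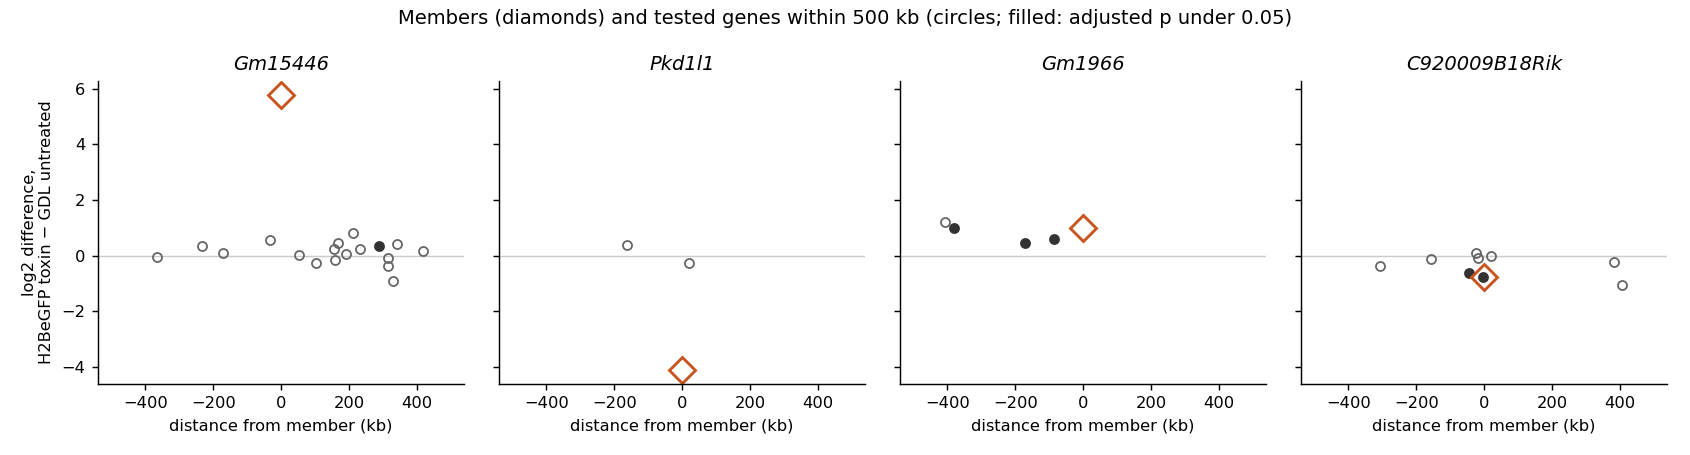
Log2 difference of log2(value + 1), toxin-treated Tcrd-H2BeGFP minus untreated Tcrd-GDL, of 4 members (diamonds at 0) and of the tested genes within 500 kb (circles, filled where limma's adjusted p is under 0.05), against the distance from the member in kb. Gm15446 (5.79) and Pkd1l1 (-4.12) stand far from all their neighbours, while Gm1966 and C920009B18Rik lie near the called genes around them.

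In the depletion comparisons no neighbour of any member passed, and in co-culture 1 did. This was Sgk1, a kinase gene near C920009B18Rik, which was lower with γδ T cells by -0.81 ± 0.17 (SE; limma adjusted p = 0.0300), a call lost without any 1 of the libraries of B cells alone. None of the 3 neighbours of Gm1966 tested in culture passed, and their high library was the one that was high for Gm1966. In co-culture replicate 3, Gm8995 had 1669 normalized reads against 510 to 658 in the other 5 libraries. Gm4759 had 422 against 130 to 172, and Gvin1 had 71.1 against 11.7 to 30.1. Gm4070, the remaining very large inducible GTPase tested, was also highest in co-culture replicate 3. It had 39.5 normalized reads there and at most 20.4 in the other culture libraries. Of the interferon-inducible GTPases, the 3 genes Igtp, Irgm1 and Gbp2 were not high in co-culture replicate 3, at 90.4, 461 and 123. These 3 were picked after their values were seen. Single-library values of the other interferon-inducible GTPases are not given, so a rise confined to the genes near Gm1966 was not tested. Among 13 tested interferon-inducible GTPases, Tgtp2 rose with γδ T cells, from 53.7 ± 27.3 (SD, n = 3) to 177 ± 13.7 (SD, n = 3) normalized reads, by 1.86 ± 0.34 (SE; limma adjusted p = 0.0134) and Gbp3 fell by 0.73 ± 0.14 (SE; limma adjusted p = 0.0174, lost without replicate 1 or 2 of B cells alone). The summed T cell markers were 800 to 881 in B cells alone and 1011 to 1355 with γδ T cells. Summed markers of γδ T cells were 0 to 5.02 and 0 to 5.26 in the same order. The part of such cells in these values was not tested.

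**Figure D5:**
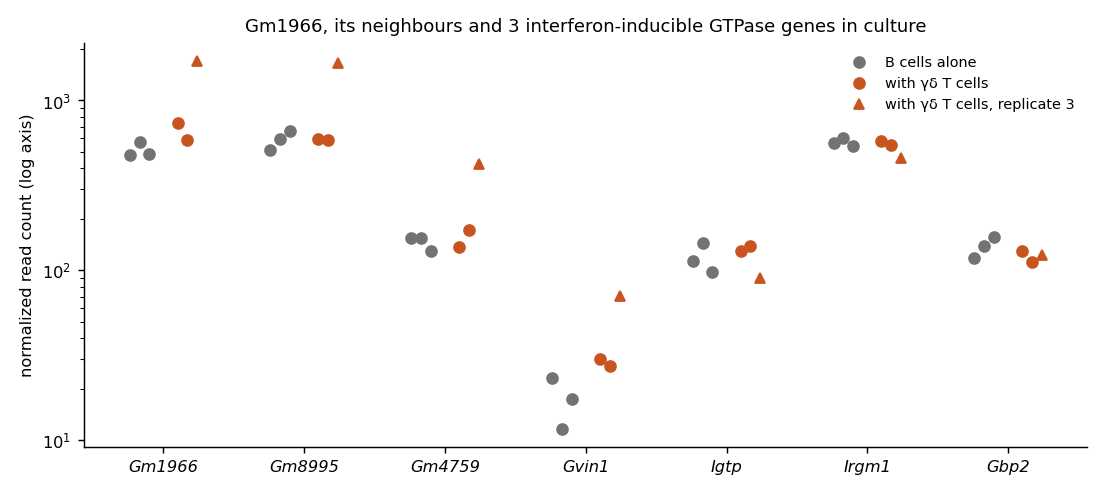
Normalized read count (log axis) of Gm1966, 3 genes near it and 3 interferon-inducible GTPase genes in the 6 culture libraries; grey points are B cells alone, orange ones B cells with γδ T cells, and the triangle is co-culture replicate 3. That library is the highest for Gm1966 (1706), Gm8995 (1669), Gm4759 (422) and Gvin1 (71.1). It is not for Igtp, Irgm1 or Gbp2, which were picked after their values were seen. Gm4070, which is not drawn, was also highest in that library (39.5).

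Genes whose log2 values followed each member over the 10 libraries of experiment 2 were listed by Pearson's r among 13159 genes, as a description of libraries that fall into 2 strains. Closest to Gm15446 were Htatsf1 (r = 0.955), Mocs1 (0.951) and Osbpl5 (0.943), and closest to Gm6768 were Trim12c (0.961), Enox2 (0.960) and Etohi1 (0.958). Closest to Pkd1l1 were Tspan32 (0.990), Tnfrsf22 (0.975) and Tnfrsf26 (0.974), all 3 of them on chromosome 7. Tspan32, a tetraspanin gene, averaged 1632 normalized reads in untreated Tcrd-GDL, 1541 in toxin-treated Tcrd-GDL and 564 in Tcrd-H2BeGFP. Gm1966 was followed most closely by Fkbp15 (0.987) and Akap9 (0.987), and C920009B18Rik by Nup43 (0.980), Tnfrsf22 (0.973) and Pkd1l1 (0.971). Nup43, a nuclear pore gene on chromosome 10, averaged 197, 195 and 118 in the same order of groups. The likeness is in the relative pattern of log2 values over the libraries, and r takes no account of the size of the difference.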

How the data were processed

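The members and lists were chosen with earlier results of these data known. Per the labels' protocols, the RNeasy Plus Micro kit gave the total RNA, and Takara's SMART-Seq Stranded kit the libraries. The tools were bcl2fastq and STAR 2.5.2b on mm10, per the submitters' processing notes. The read counter, its use of strand, annotation and scaling method: not given in the sources used here. In the 3 deposited tables, values are normalized counts, that is, a per-gene signal scaled by the authors in each library. In every library 100% of values were whole multiples of 1 read within a tolerance of 0.01, which gave back the reads. Recovered reads were used for depth, CPM and the alternatives edgeR 4.0.16 (0, 51, 237 and 2101 genes called in depletion 1, depletion 2, co-culture and the strain comparison) and DESeq2 1.42.0 (31, 137, 399 and 2615).

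Main tests used limma 3.58.1 (R 4.3.3; eBayes with a trend, two-sided) on log2(value + 1), keeping genes whose mean reached 10 (11701, 13364 and 12386 genes), with Benjamini-Hochberg adjusted p under 0.05 and no covariate; it was tested on simulated data. The 3 groups of experiment 2 were fitted together. The labels do not say that libraries come from separate mice, so p-values measure only the spread between libraries. Coordinates are from GENCODE M21, which held 98.9%, 98.8% and 98.8% of identifiers. Similar transcripts were found with blastn 2.17.0, and promoters are from RefSeq (4 of 5 members matched). Named besides members were the 3 genes closest by r (1 is not reported here), up to 2 neighbours on each side and 3 by p within 500 kb, on-off genes and family lists. Genes named for single libraries (Ddx3y, Xist, Gm23935, Igtp, Irgm1, Gbp2) were chosen after their values were seen.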

Additional observations from a re-analysis of the deposited data

Results flagged for a closer look

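Among 38 genes examined for a library far from the rest in the 5 untreated Tcrd-GDL libraries of experiment 2, 1 stood out. Hus1, the neighbour of Pkd1l1, had 449 normalized reads in replicate 8 and 374 to 387 in the other libraries. With this test chance marks about 1 in 20 groups. Replicate 8 was also the highest of these libraries for Pkd1l1 (43.0), Gm6768 (12.1), Gm1966 (2944) and C920009B18Rik (1105), and the lowest for Gm15446 (1.72).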

How the results depend on the processing

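Over 151 alternative values of the members in the comparisons within a strain, 136 kept direction and side of the threshold, 14 changed sign and 1 passed the threshold. Sign changes touched no value that passed the threshold. Gm15446 in experiment 1, at 0.56 in limma, was -0.49 with edgeR and -0.21 with DESeq2. Leaving out 1 library, values ranged as follows: for Gm15446 from -0.43 to 1.36 in experiment 1 and -0.46 to 0.72 in experiment 2, for Gm6768 from -0.96 to 0.13 in experiment 2, for Gm1966 from -0.198 to 0.0464 in experiment 1 and -0.0746 to 0.341 in experiment 2, and for C920009B18Rik from -0.0936 to 0.0255 and -0.120 to 0.0014. The cause was not tested. The values of Gm15446 and Gm6768 in experiment 2 are descriptions only. In experiment 1, Gm15446 fell under the filter without untreated replicate 1, so its range does not cover that fit.

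Numbers of called genes moved more. Depletion in experiment 1 gave 0 genes, 2 with no filter on low values, 31 with DESeq2 and 0 to 1092 with 1 library left out (1092 without toxin-treated replicate 1). Depletion in experiment 2 gave 40, 137 with DESeq2, 5 with only the 2 compared groups and 0 to 579 with 1 left out (0 without toxin-treated replicate 4, 579 without replicate 5). It split as 17 higher and 23 lower by limma and as 36 and 15 by edgeR. Co-culture gave 267, and 103 (without replicate 1 of B cells alone) to 678 (without co-culture replicate 3) with 1 left out. The strain comparison gave 2093, and 196 to 2996 with 1 left out. The count of on-off genes was 1, and 5 with limits of 20 and 40. The log2 strain differences of the members kept their sign throughout, and that of Pkd1l1 ranged from -5.44 to -2.45 over settings that keep all libraries.

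Replicate numbers were not shown to pair the libraries. Deviations of same-numbered libraries correlated at -0.02, -0.04 and 0.05 in experiment 1, -0.07 and -0.11 in experiment 2 and 0.20, -0.04 and 0.23 in culture. Not every library correlated best with its own number. In culture, co-culture replicates 1 and 3 did and replicate 2 did not, so pairing there is undecided. With the replicate block, 0, 46 and 448 genes were called in depletion 1, depletion 2 and co-culture. Gm6768 was 0.36 and C920009B18Rik 0.0028 in experiment 2, and Gm1966 passed in co-culture (limma adjusted p = 0.0258 with the block, and 0.0258 to 0.516 over all its fits). Members at a few reads per library are limited by depth.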
